A study of Homo sapiens with 9 samples.

Results

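HEK293 Freestyle cells grown in medium from which zinc had been removed and then restored were compared with cells grown in untreated medium. HEK293 is an established human embryonic kidney line, and the Freestyle line grows in suspension. Of the 9 libraries, 3 came from cells in untreated Freestyle medium (full). Another 3 came from cells in medium that had been depleted of Zn(II) and then had Zn(II) added back (repleted). The remaining 3, from Zn(II)-depleted medium (depleted), are given beside them for the genes described in most detail. All cells shared the same handling: at least 18 h at 1000000 cells/mL in 40 mL of Freestyle medium, 3 washes in PBS, plating from a suspension of 4000000 cells/mL into a 12-well plate, and 36 h of culture. The labels also mention a wash with 500 µM EDTA followed by PBS, in wording that does not make clear what was washed. The method of depletion and the amount of zinc added back are not given in the sources used here, and all cells were of a single line. As the labels describe it, cells went straight into their medium, so the repleted cells are not described as having passed through depleted medium. The libraries were biological triplicates, per the labels. Polyadenylated RNA was measured per gene in RPKM, which scales reads by the length of the gene and the total of the library, and 15774 of the 57766 genes in the table had at least 1 RPKM in at least 3 libraries and were tested.

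Zinc is bound inside cells by metallothioneins, small cysteine-rich proteins, is carried out of the cytosol by SLC30 transporters and is brought into it by SLC39 transporters. The zinc-finger factor MTF1 senses free zinc: with zinc bound it enters the nucleus, binds metal response elements, and activates the metallothionein genes and SLC30A1, while SLC39A10 is repressed. Metallothionein and SLC30A1 transcripts are therefore widely used as readouts of zinc available to MTF1.

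The sequences below are the 250 bases before the RefSeq transcription start (GRCh38.p14) of MT2A, which was called, and of MT1X and SLC30A1, known MTF1 targets that missed the threshold, each 5′ to 3′ on the gene's own strand. They are shown because they hold the letters that MTF1 is known to bind. Capitals mark each match to the 7-letter cores TGCACNC and TGCGCNC on either strand. The cores differ in a single letter and cannot both match the same letters, and no match overlapped another. MT2A lies at chr16:56608334-56608583 (+), MT1X at chr16:56682220-56682469 (+) and SLC30A1 at chr1:211579162-211579411 (-).
MT2A: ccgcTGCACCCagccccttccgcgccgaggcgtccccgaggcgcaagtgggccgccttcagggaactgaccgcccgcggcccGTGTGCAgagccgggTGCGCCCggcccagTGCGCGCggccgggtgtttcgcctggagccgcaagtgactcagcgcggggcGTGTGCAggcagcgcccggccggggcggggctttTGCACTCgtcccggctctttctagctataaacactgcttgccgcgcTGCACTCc
MT1X: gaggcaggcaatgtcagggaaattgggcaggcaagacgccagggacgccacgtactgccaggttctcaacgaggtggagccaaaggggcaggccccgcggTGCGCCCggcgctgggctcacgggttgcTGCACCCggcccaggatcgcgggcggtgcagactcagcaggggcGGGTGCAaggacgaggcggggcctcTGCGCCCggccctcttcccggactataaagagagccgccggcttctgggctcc
SLC30A1: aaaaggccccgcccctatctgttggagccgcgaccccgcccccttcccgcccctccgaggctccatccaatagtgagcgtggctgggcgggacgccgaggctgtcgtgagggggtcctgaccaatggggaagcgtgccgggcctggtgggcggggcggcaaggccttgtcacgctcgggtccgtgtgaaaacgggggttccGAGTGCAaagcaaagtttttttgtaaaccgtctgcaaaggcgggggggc
The MT2A window held 7 matches, that of MT1X 4 and that of SLC30A1 1. At least 1 match stood in 8719 of 35116 RefSeq promoter windows of this length (24.8%), and 2 or more in 2276 (6.48%). Among windows of tested genes the shares were 31.9% and 9.04%. A match describes letters in the window and not a bound site. The FTL window (chr19:48965059-48965308, +), of a gene also lower in repleted medium, held 0 matches. MT1F and HMOX1 are described by expression alone.

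Most measured transcripts of repleted cells had an estimated level near that in full medium. In the limma test with Benjamini-Hochberg adjustment, 5 of 15774 genes (0.0317%) differed between repleted and full medium at an adjusted p under 0.05. All 5 were lower in repleted medium: the metallothioneins MT2A and MT1F, the heme oxygenase HMOX1, the ferritin light chain FTL, and the short pseudogene RP3-365I19.2. No gene was higher by this test, and 549 genes (3.48%) were higher at an unadjusted limma p under 0.05. A further 675 (4.28%) were lower at that level, so that 1224 genes (7.76%) passed it in all. Counts of list members at that level, given below, are to be read beside these shares. The same test called 9611 genes (60.9%) in depleted against full medium, with 29.8% of the genes higher (4693) and 31.2% lower (4918). It called 9574 genes (60.7%) in depleted against repleted medium. These 3 comparisons share libraries in pairs, so their gene sets were not set against each other.

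The median log2 difference of repleted minus full was -0.000794 over all genes tested, with quartiles of -0.0745 and 0.0746. It lay within 0.25 of 0 in 14035 genes (89.0%), against 5750 genes (36.5%) for depleted minus full. The 95% confidence interval of repleted minus full lay inside ±0.5 in 12244 genes (77.6%) and inside ±1 in 14901 (94.5%). Among the 12892 tested protein-coding genes these shares were 87.5% and 98.7%. For the remaining genes the libraries could not bound the difference this closely. All these differences are of RPKM plus 1, which compresses changes of genes near 1 RPKM, so their intervals bound fold changes less closely.

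**Figure D1:**
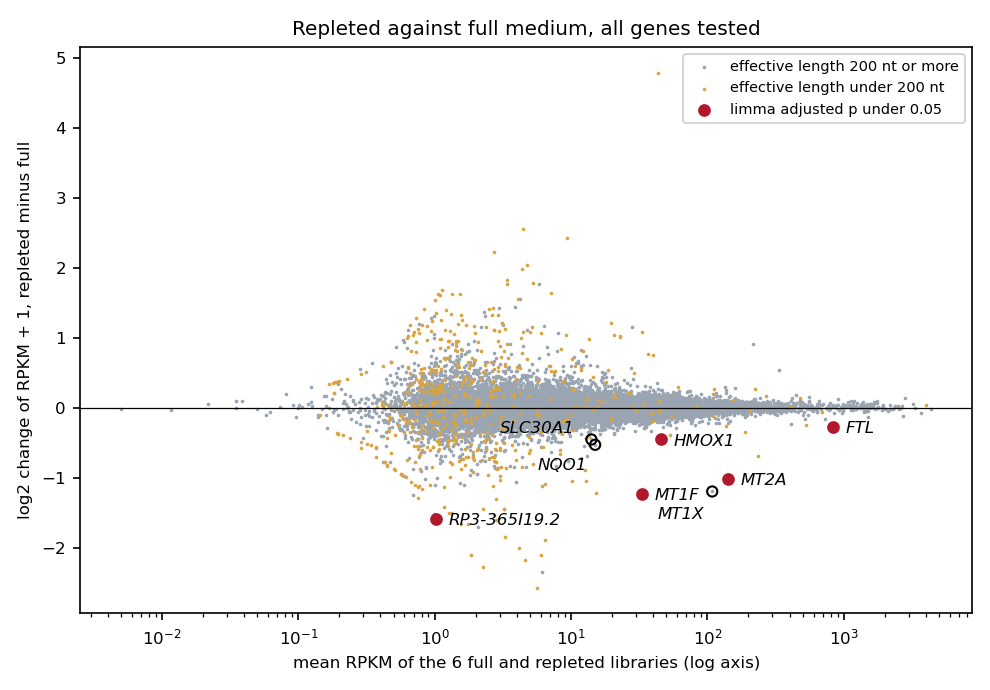
Log2 difference of RPKM + 1, repleted minus full (vertical axis), against the mean RPKM of the 6 libraries compared (horizontal log axis), 1 point per gene tested. The 5 called genes (red) all lie below 0, MT1X, SLC30A1 and NQO1 (open circles) have an adjusted p of 0.0596, and the widest scatter is among genes with an effective length under 200 nucleotides (yellow).

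Leaving out 1 library at a time gave between 1 and 6 genes lower and between 0 and 3 higher. The repleted libraries were not uniform: in a principal component analysis of the 6 libraries, repleted replicates 1 and 2 lay at 19.84 and 19.4 on the first component. Repleted replicate 3 lay at -5.58, near the full libraries (-16.51 to -7.5), and stood apart from all others on the second component, at -26.84. Pearson's r across genes, which are not independent, was 0.983 to 0.9837 between repleted libraries, 0.9858 to 0.9867 between full libraries and 0.9819 to 0.9858 between the 2 groups. Without repleted replicate 3, MT2A alone passed the limma test (log2 -1.05, adjusted p = 0.00933). Depth, estimated from the spacing of low values, was 17000000 to 23500000 reads per library. Mitochondrially encoded genes took 1.388% to 1.501% of the length-weighted signal in repleted and 1.327% to 1.536% in full libraries.

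Among the called protein-coding genes, the metallothioneins were furthest from their full level. MT2A (ENSG00000125148), the most abundant one here, had 188, 201 and 184 RPKM in full medium, 93.6, 90.1 and 96.7 in repleted medium, and 6.57, 5.72 and 7.08 in depleted medium. All 3 repleted libraries lay below all 3 full libraries and far above all 3 depleted ones. The mean of 93.5 ± 3.34 RPKM (SD, n = 3) in repleted medium was 49.0% of the 191 ± 8.9 in full medium and 14.5-fold above depleted medium. The difference from full medium was -1.02 on the log2 scale (SE 0.07, 95% interval -1.17 to -0.87, limma adjusted p = 0.00114). It passed under all 19 alternative settings, with log2 values between -1.05 and -0.98. In bulk RNA, fewer cells with the transcript and less of it per cell cannot be told apart, here and in every result that follows.

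MT1F (ENSG00000198417) had 45.8, 49.0 and 45.8 RPKM in full medium, 20.5, 15.3 and 23.3 in repleted medium, and 1.23, 1.86 and 1.24 in depleted medium. The 3 groups again did not overlap, and the repleted mean of 19.7 ± 4.07 RPKM was 42.1% of the full mean. Its log2 difference was -1.23 (SE 0.15, limma adjusted p = 0.0382). It passed in 5 of the 19 alternatives. It passed in none of the 9 fits that left out a library, where its adjusted p lay between 0.0517 and 0.227. MT1F also missed the threshold with the full and repleted libraries alone and with the replicate number as a block. The same held with no filter (0.106), with a pseudocount of 0.1 (0.107) and at the stricter threshold.

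MT1X (ENSG00000187193) had values of the same kind and missed the threshold. It had 152, 163 and 139 RPKM in full medium, 70.4, 70.0 and 56.4 in repleted medium, and 1.71, 2.48 and 1.16 in depleted medium. No library of one group reached the range of another, and the repleted mean was 43.3% of the full mean. The log2 difference of -1.20 (SE 0.16) had a limma adjusted p of 0.0596, and it passed in 7 of 19 alternatives. These were the 3 tested members of 13 listed metallothioneins, 2 called lower, with a median of -1.20 on the log2 scale for repleted minus full and -4.69 for depleted minus full. The 10 other members never exceeded 0.21 RPKM. Metallothionein transcripts resemble each other in sequence, so reads may have been divided between members.

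The SLC30 exporters carry zinc out of the cytosol, SLC30A1 at the plasma membrane. SLC30A1 (ENSG00000170385) had 16.0, 16.5 and 16.8 RPKM in full medium, 11.2, 11.6 and 12.4 in repleted medium, and 7.14, 6.62 and 7.04 in depleted medium. The repleted libraries lay between the other groups with no overlap. The repleted mean of 11.7 ± 0.635 RPKM was 71.4% of the full mean, a log2 difference of -0.45 (SE 0.06) whose limma adjusted p of 0.0596 missed the threshold. In depleted medium SLC30A1 was 1.14 lower than in full medium (log2 -1.14) and 0.68 lower than in repleted medium (log2 -0.68), and both passed.

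Of the 9 tested exporters 0 were called between repleted and full medium. Beside 4.28% of all genes tested, 4 exporters (44.4%) were lower at an unadjusted limma p under 0.05, and 0 were higher. Besides SLC30A1 these were SLC30A2, SLC30A5 and SLC30A6. SLC30A2, a vesicular exporter, had 1.59, 1.98 and 1.41 RPKM in full medium, 0.92, 0.98 and 1.2 in repleted medium and at most 0.17 in depleted medium, and its log2 difference of repleted minus full was -0.38 (limma adjusted p = 0.591). SLC30A6, an exporter of the Golgi, had 15.9, 14.7 and 14.0 RPKM in full medium and 12.0, 11.9 and 12.3 in repleted medium, and 16.8, 15.8 and 19.6 in depleted medium. Its values were thus lowest in repleted medium, with a log2 difference from full of -0.28 (limma adjusted p = 0.475). SLC30A5, its partner in the secretory pathway, had 48.8, 45.4 and 45.5 RPKM in repleted and 52.8, 53.2 and 59.1 in full medium (log2 -0.24). The other tested members, SLC30A3, SLC30A4, SLC30A7, SLC30A9 and SLC30A10, had log2 differences between -0.24 and 0.19. The median over the 9 exporters was -0.24 for repleted minus full and -0.20 for depleted minus full, and the interval lay inside ±0.5 for 4 of them.

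The SLC39 importers bring zinc into the cytosol, and their levels in repleted medium were close to those in full medium. Of 11 tested members of 14 listed, 0 were called, and at an unadjusted limma p under 0.05 1 was higher and 2 were lower. The 95% interval of every tested importer lay inside ±0.5. SLC39A10 (ENSG00000196950), the importer that MTF1 represses, had 16.5, 17.7 and 17.5 RPKM in full medium, 14.8, 15.4 and 14.6 in repleted medium, and 50.3, 48.6 and 50.9 in depleted medium. The repleted libraries were the lowest and did not overlap the full ones, with a log2 difference of -0.19 (SE 0.05, limma adjusted p = 0.36), and the depleted libraries were 1.48 above the full ones on the log2 scale.

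SLC39A4 (ENSG00000147804), the importer mutated in the zinc deficiency acrodermatitis enteropathica, had 32.7, 30.0 and 33.7 RPKM in full medium, 33.8, 31.1 and 30.0 in repleted medium, and 12.4, 10.6 and 11.1 in depleted medium. The full and repleted libraries overlapped and differed by -0.02 on the log2 scale (95% interval -0.18 to 0.14). SLC39A7, the zinc release channel of the endoplasmic reticulum, differed by 0.03 between repleted and full medium and by 0.68 between depleted and full medium. SLC39A11 gave -0.01 and -0.59 for the same differences. SLC39A13, a transporter of the secretory pathway, had the largest positive value, 0.25 (limma adjusted p = 0.527), and SLC39A9 had -0.15.

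MTF1 itself is known to be controlled by zinc binding to the protein. Its transcript had 3.98, 3.54 and 4.52 RPKM in full medium, 3.46, 3.78 and 3.53 in repleted medium, and 6.87, 6.06 and 5.09 in depleted medium. The full and repleted libraries overlapped (log2 -0.12, 95% interval -0.38 to 0.13), and depleted medium was 0.48 higher than full (log2). Of 11 tested genes in the list of MTF1 and its classical targets other than metallothioneins, 0 were called. At an unadjusted limma p under 0.05, 4 (36.4%) were lower, beside 4.28% of all genes tested: SLC30A1, SLC39A10, TXNRD1 and SLC30A2. A lower level does not have the same meaning for all of them, since MTF1 activates SLC30A1 and represses SLC39A10.

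**Figure D2:**
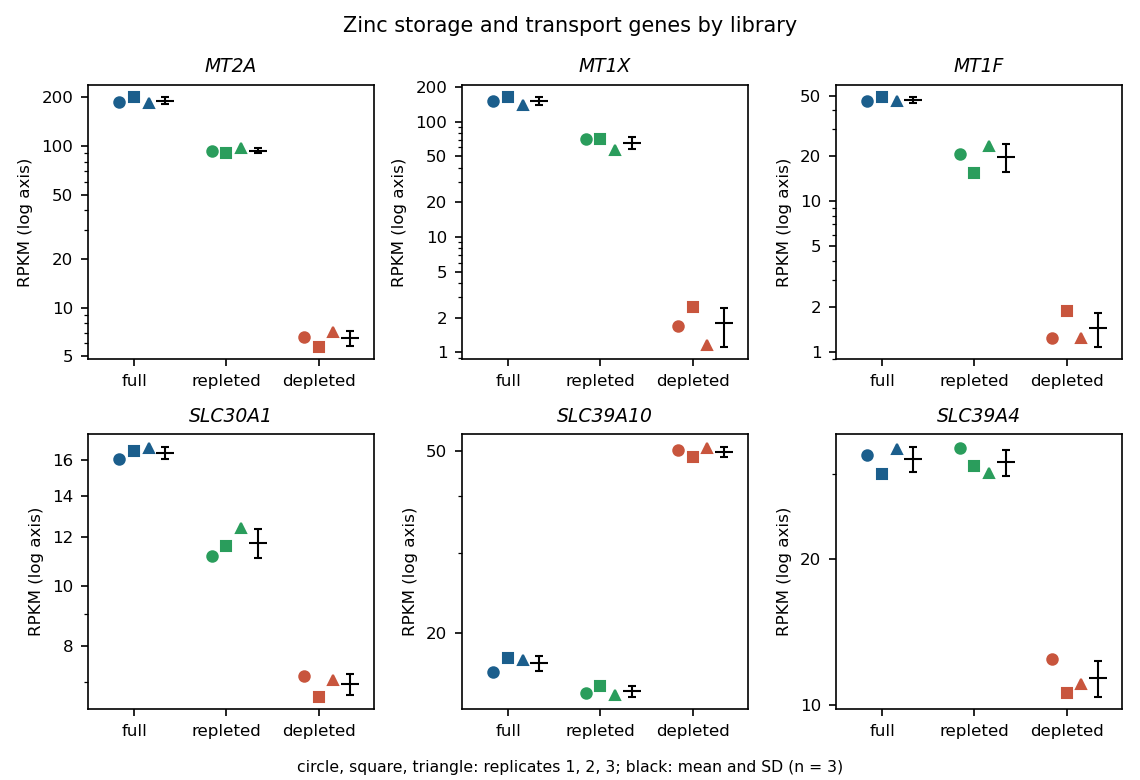
RPKM (log axis) of 6 zinc genes in each library, by medium; circles, squares and triangles are replicates 1, 2 and 3, and the black bar is the mean with its SD. MT2A, MT1X, MT1F and SLC30A1 sit between full and depleted medium in the repleted libraries, while SLC39A10 and SLC39A4 sit beside or just under their full levels.

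The lists of genes that use zinc had no called member. Of 36 tested zinc-dependent enzymes 0 were called between repleted and full medium, with 2 lower and 0 higher at an unadjusted limma p under 0.05, and the median log2 difference was -0.0044. In depleted medium 11 of them (30.6%) were higher and 16 (44.4%) lower than in full medium, with a median of -0.22. Over all genes tested these shares were 29.8% and 31.2%. GLO1, the zinc enzyme glyoxalase that clears methylglyoxal, differed by -0.04 between repleted and full medium. PGM1, phosphoglucomutase, also stands in this list, although its usual metal is magnesium. It was 1.57 lower in depleted than in full medium (log2 -1.57) and differed by -0.01 between repleted and full. Of 9 zinc chaperones and methionine aminopeptidases, metal enzymes that trim new proteins, 0 were called and 0 had an unadjusted limma p under 0.05. METAP2 in that list differed by -0.06 between repleted and full medium and by -0.79 between depleted and full.

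The second group of called genes belonged to heme and iron handling. HMOX1 (ENSG00000100292), heme oxygenase 1, which breaks heme down and frees its iron, had 50.4, 54.2 and 54.6 RPKM in full medium, 38.4, 37.6 and 39.2 in repleted medium, and 32.5, 33.3 and 35.3 in depleted medium. The repleted libraries lay below all full libraries and closer to the depleted ones. Their mean was 38.4 ± 0.76 RPKM, 72.4% of full, a log2 difference of -0.45 (SE 0.05, limma adjusted p = 0.0282). HMOX1 passed in 9 of 19 alternatives and not without full replicate 2 (adjusted p = 0.199), full replicate 3 (0.212), depleted replicate 2 (0.0517) or repleted replicate 1 (0.0942), 2 (0.0925) or 3 (0.0744).

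FTL (ENSG00000087086), the light chain of the iron store ferritin, did not lie between the other media. It had 891, 915 and 926 RPKM in full medium, 785, 734 and 733 in repleted medium, and 980.2, 1015 and 1012 in depleted medium. Repleted libraries were the lowest and depleted libraries the highest, with no overlap between any groups. The repleted mean of 751 ± 29.5 RPKM was 82.4% of full (log2 -0.28, SE 0.03, limma adjusted p = 0.0282), while depleted medium was 0.14 above full (log2 0.14, limma adjusted p = 0.00353). FTL passed in 9 of 19 alternatives. It was lost without full replicate 2 (adjusted p = 0.209), full replicate 3 (0.212), depleted replicate 2 (0.0517) or depleted replicate 3 (0.0689). The same held without repleted replicate 2 (0.114) or 3 (0.113). FTL was also lost with the full and repleted libraries alone, with the replicate number as a block and with no filter (0.106). It was not called at the stricter threshold either.

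Of 17 tested iron genes, HMOX1 and FTL were called, beside 0.0317% of all genes tested. At an unadjusted limma p under 0.05, 6 (35.3%) were lower and 0 higher, beside 4.28% and 3.48% of all genes tested. FTH1, the ferritin heavy chain, had 754.9, 770.2 and 794 RPKM in full medium and 719.8, 675 and 685 in repleted medium (log2 -0.16), with no overlap. TFRC, the transferrin receptor that takes iron in, had 44.3, 36.3 and 33.3 RPKM in full medium and 29.9, 34.2 and 30.3 in repleted medium, which overlap (log2 -0.25, limma adjusted p = 0.609). FBXL5, an iron-sensing ubiquitin ligase subunit, had a log2 difference of -0.23, and SLC25A28, a mitochondrial iron importer, one of -0.16. The median over the 17 genes was -0.11 for repleted minus full and -0.13 for depleted minus full. STEAP3, the endosomal ferrireductase, differed by 0.03 between repleted and full medium and by -1.40 between depleted and full.

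HMOX1, FTL and FTH1 also stand in the list of targets of NRF2, the transcription factor of the response to oxidants and electrophiles, so this list is not a separate body of evidence. Of its 25 tested members 2 were called lower (HMOX1 and FTL). At an unadjusted limma p under 0.05, 11 (44%) were lower and 1 (4%) higher, beside 4.28% and 3.48% of all genes tested. NQO1 (ENSG00000181019), a quinone reductase, had 18.3, 18.5 and 17.0 RPKM in full medium, 11.7, 12.2 and 12.5 in repleted medium, and 8.41, 7.44 and 7.21 in depleted medium. The groups did not overlap, and the repleted mean of 12.1 ± 0.408 RPKM was 67.5% of full (log2 -0.53, SE 0.07). Its limma adjusted p was 0.0596, and it passed in 5 of 19 alternatives. MGST1, a membrane-bound glutathione transferase, had 59.9, 58.0 and 55.5 RPKM in full medium and 47.6, 46.2 and 52.0 in repleted medium (log2 -0.25).

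The other members with an unadjusted limma p under 0.05 had small differences. They were ME1 (-0.18), NFE2L2, which encodes NRF2 (-0.17), SRXN1 (-0.16), TXNRD1 (-0.12), GSTP1 (-0.10), PRDX1 (-0.07) and GPX1 (0.06) on the log2 scale. The list's median was -0.04 for repleted minus full and 0.10 for depleted minus full. Its members also parted ways in depleted medium: SLC7A11, the cystine importer, was 2.13 higher than in full medium (log2) and SRXN1 1.35 higher, while NQO1 was 1.13 lower (log2 -1.13). SLC7A11 had 3.70, 3.87 and 3.75 RPKM in full medium and 3.38, 3.79 and 3.88 in repleted medium, which overlap (log2 -0.03). BACH1, a heme-regulated repressor of HMOX1, had 11.2, 11.5 and 10.6 RPKM in full medium, 8.68, 8.54 and 9.89 in repleted medium and 15.0, 15.4 and 15.6 in depleted medium. Its log2 difference of repleted minus full was -0.27 (limma adjusted p = 0.379).

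**Figure D3:**
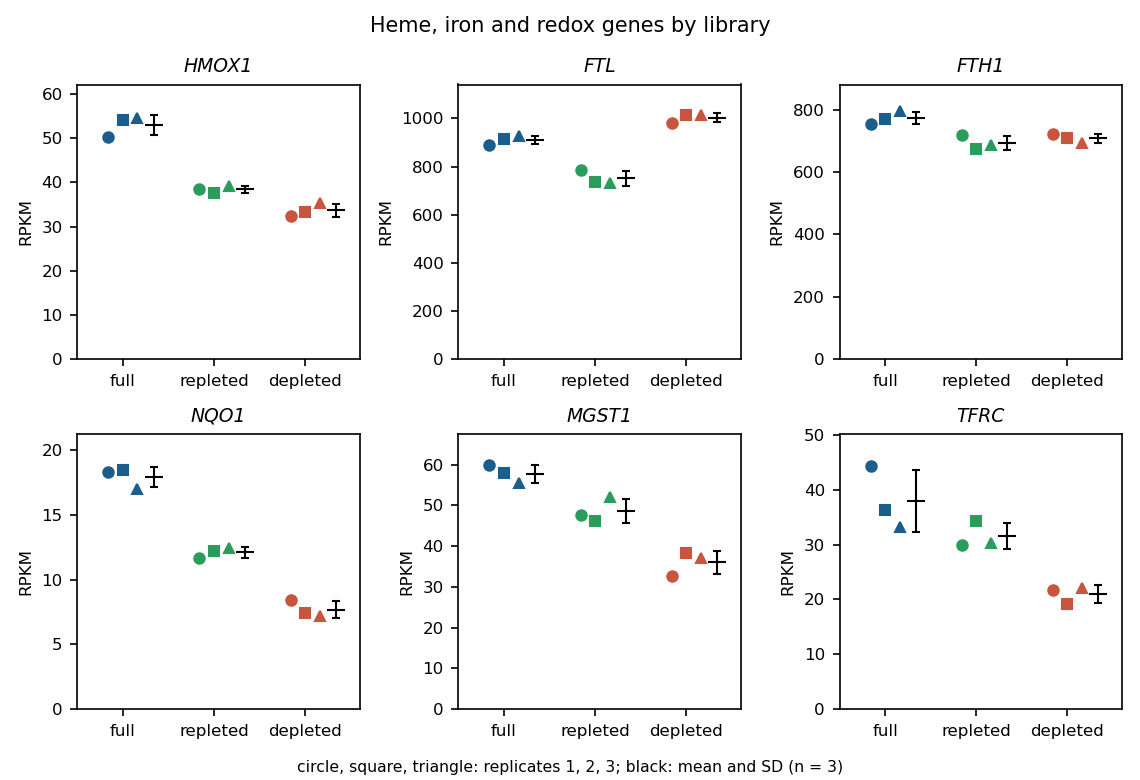
RPKM (axis from 0) of 6 heme, iron and redox genes in each library, by medium, with symbols for replicates 1, 2 and 3 and a black bar for the mean and SD. HMOX1, NQO1 and MGST1 lie between full and depleted medium in the repleted libraries, whereas FTL is lowest in repleted medium and TFRC overlaps between full and repleted medium.

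Other metals gave no called gene. Of 15 tested copper genes 0 were called, with 0 higher and 2 lower at an unadjusted limma p under 0.05, and the interval of all 15 lay inside ±0.5. SOD1, the copper and zinc superoxide dismutase, differed by -0.02 between repleted and full medium, and the copper exporter regulator COMMD1 by -0.09, against -1.15 between depleted and full. Of 20 tested transporters of manganese, magnesium and calcium 0 were called and 0 had an unadjusted limma p under 0.05. SLC41A3, a mitochondrial magnesium carrier, differed by -0.07 between repleted and full medium and was 2.09 higher in depleted than in full medium (log2).

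Outside the metallothioneins, 11 genes with large responses to depletion stood at or near their full level in repleted medium. They were chosen for their change in depleted medium, so the depleted values are given as a description. The 11 do not stand for every gene with a large response. The noncoding RP11-3P17.5, not among them, had the largest log2 rise in depleted medium of all genes tested. It had 0, 22.2 and 0 RPKM in full, 89.5, 93.6 and 55.7 in repleted and 48.2, 79.9 and 66.7 in depleted medium. The polymerase subunit POLR3G, lower in depleted medium (log2 -2.09), had 76.0% of its full level in repleted medium. Neither gene was called between repleted and full medium (limma adjusted p = 0.333 for both). COQ3, a methyltransferase of coenzyme Q synthesis, had 26.4, 27.9 and 22.6 RPKM in full medium, 28.7, 29.2 and 24.3 in repleted medium, and 1.72, 1.36 and 1.39 in depleted medium. Full and repleted libraries overlapped, with a log2 difference of 0.09 (95% interval -0.13 to 0.32). AGK, a mitochondrial lipid kinase, had 46.9, 44.3 and 46.4 RPKM in full medium, 43.9, 45.7 and 47.1 in repleted medium, and 4.64, 3.70 and 4.18 in depleted medium. The same overlap held, with a difference of -0.01 (95% interval -0.16 to 0.14). CDKN2AIPNL had 68.5, 62.0 and 62.2 RPKM in full medium, 62.9, 59.9 and 65.1 in repleted medium, and 5.51, 5.15 and 5.25 in depleted medium.

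EEFSEC, the elongation factor that delivers selenocysteine, had repleted libraries just below its full ones. It had 27.0, 26.7 and 28.6 RPKM in full medium, 24.2, 23.6 and 24.4 in repleted medium, and 1.66, 1.79 and 1.93 in depleted medium. Its log2 difference was -0.18 (95% interval -0.32 to -0.05, limma adjusted p = 0.527). TTC5, a cofactor in p53 and tubulin regulation, RASL10B, a Ras-like GTPase, and HDAC8, a zinc-dependent deacetylase, differed by -0.03, 0.05 and 0.07 between repleted and full medium. Their differences between depleted and full medium were -3.12, -3.11 and -2.59.

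DHRS2, CHAC1, CIB3 and PRRG2, high in depleted medium, were low in repleted medium. DHRS2, a short-chain dehydrogenase, had 4.67, 5.87 and 5.16 RPKM in full medium, 5.67, 6.38 and 5.59 in repleted medium, and 99.6, 110 and 110 in depleted medium. Full and repleted libraries overlapped (log2 0.14, 95% interval -0.04 to 0.33). CHAC1, which degrades glutathione, had 2.28, 2.27 and 2.58 RPKM in full medium, 2.72, 2.09 and 2.69 in repleted medium and 30.5, 29.9 and 30.3 in depleted medium (repleted minus full log2 0.05, 95% interval -0.15 to 0.25). CIB3 and PRRG2 stayed under 1 RPKM in all 6 full and repleted libraries and reached 19.3 to 20.0 and 18.5 to 22.9 RPKM in depleted medium. The interval of CIB3 for repleted minus full was -0.20 to 0.53.

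**Figure D4:**
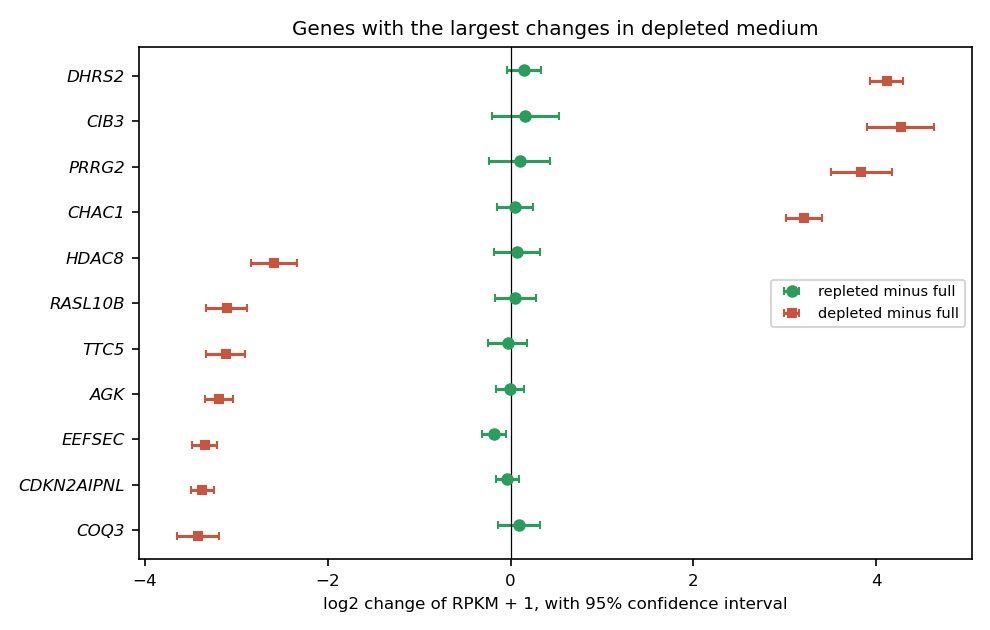
Log2 difference of RPKM + 1 with its 95% confidence interval for 11 genes, repleted minus full (green circles) and depleted minus full (red squares). The repleted differences lie between -0.18 and 0.16, while the depleted ones reach from -3.42 to 4.27.

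Apart from HMOX1 and FTL in the NRF2 list, the stress lists had no called member between repleted and full medium. Of 40 tested targets of ATF4, the factor of the integrated stress response, 0 were called in repleted against full medium, with 4 higher and 1 lower at an unadjusted limma p under 0.05. Against the same full libraries, 35 (87.5%) were higher and 3 (7.5%) lower in depleted medium, beside 29.8% and 31.2% of all genes tested. The list's median was 0.03 for repleted minus full and 0.82 for depleted minus full. The 4 with positive differences were DDIT4, an mTOR inhibitor (0.19), JDP2, an AP-1 repressor (0.50), ASNS, asparagine synthetase (0.19), and SHMT2, a mitochondrial enzyme of serine metabolism (0.11), and PPP1R15A, the phosphatase subunit that ends the response, had -0.16. Each of these 4 positive values lay between full and depleted medium in its mean, as 24.4, 28.0 and 50.7 RPKM in full, repleted and depleted medium for DDIT4. The 4 were picked for values above full medium in a list mostly higher in depleted medium, so this place is only a description. ATF4 itself differed by 0.05 between repleted and full medium.

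None of 26 unfolded protein response genes, 20 heat shock genes, 26 hypoxia targets or 24 p53 targets was called. At an unadjusted limma p under 0.05, 0 were higher and 2 lower in the first, 1 and 3 in the second, 2 and 0 in the third, and 1 and 2 in the last. The interval of every one of these genes lay inside ±0.5. MANF, a secreted protein of the endoplasmic reticulum stress response, differed by 0.02 between repleted and full medium and by 0.76 between depleted and full. HSP90AB1, a cytosolic chaperone, differed by -0.08 and -0.93 for the same pairs, SESN2, a stress-induced inhibitor of mTORC1, by 0.08 and 1.41, and the apoptosis effector BAX by 0.01 and 0.95.

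Lysosomal genes had 0 called of 29 tested, with a median of -0.05. At an unadjusted limma p under 0.05, 0 were higher and 6 (20.7%) lower, beside 3.48% and 4.28% of all genes tested. Among the 6 was SQSTM1, the autophagy receptor, with 79.0, 82.3 and 81.3 RPKM in full medium, 72.2, 68.7 and 73.1 in repleted medium, and 90.2, 90.7 and 96.3 in depleted medium. Its repleted libraries were the lowest of the 9, with a log2 difference from full medium of -0.18. In depleted medium 24 of the 29 genes (82.8%) stood higher than in full medium and 1 (3.45%) lower, beside 29.8% and 31.2% of all genes tested.

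Growth and energy genes had no called member. Of 79 tested cytosolic ribosomal protein genes 0 were called, with 4 higher and 0 lower at an unadjusted limma p under 0.05. Their median was 0.01 for repleted minus full and 0.11 for depleted minus full. Of 26 ribosome biogenesis genes 0 were called (0 higher and 2 lower at an unadjusted limma p under 0.05), and PES1, a nucleolar factor, differed by -0.004 against -1.28 in depleted minus full. Of 30 nuclear respiratory chain genes 0 were called (0 and 2), and NDUFA1, a complex I subunit, differed by 0.05 against -1.04. Of 16 coenzyme Q and cardiolipin genes 0 were called and 0 passed at an unadjusted limma p under 0.05. Of 15 mitochondrially encoded genes 0 were called (1 higher and 0 lower at an unadjusted limma p under 0.05), and the large ribosomal RNA MT-RNR2 differed by 0.04 against 1.29.

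Cell cycle and lipid genes were not called either. The 30 S-phase genes had 0 called (2 higher and 0 lower at an unadjusted limma p under 0.05), the 30 mitosis genes 0 called (0 and 1), and the interval of every one of them lay inside ±0.5. CCND1, cyclin D1, had 29.6, 30.0 and 28.3 RPKM in full medium, 34.3, 31.8 and 33.7 in repleted medium, and 5.66, 5.28 and 6.42 in depleted medium. Its repleted libraries were the highest of the 9, with a log2 difference from full of 0.18 (limma adjusted p = 0.592), and depleted minus repleted was -2.34. Of 20 genes of MYC and G1 control 0 were called (1 and 2), and of 26 genes of cell death and survival 0 (2 and 0). Of 15 replication-dependent histones 0 were called (2 and 1) and the interval lay inside ±0.5 for 6 of them. Of 23 cholesterol genes 0 were called, with 3 higher and 0 lower at an unadjusted limma p under 0.05. Of 15 fatty acid genes 0 were called (0 and 1), and of 18 glycolysis genes 0 (1 and 0), with GAPDH at 2522, 2555 and 2592 RPKM in full and 2540.0, 2503 and 2523 in repleted medium.

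Signalling genes did not pass. ID3, an inhibitor of helix-loop-helix factors induced by BMP, had 10.8, 8.01 and 9.49 RPKM in full medium, 18.8, 14.0 and 16.3 in repleted medium, and 10.8, 11.2 and 10.6 in depleted medium. The repleted libraries were the highest of the 9, with a log2 difference from full of 0.73 (SE 0.12, limma adjusted p = 0.152). EGR1, an immediate early transcription factor, had 2.03, 2.08 and 2.24 RPKM in full medium, 3.43, 3.25 and 3.04 in repleted medium, and 5.73, 6.23 and 5.95 in depleted medium. Here repleted medium lay between the others (log2 0.44, limma adjusted p = 0.292). Of 16 TGF-beta and BMP targets 0 were called (3 higher and 0 lower at an unadjusted limma p under 0.05), of 22 immediate early genes 0 (1 and 1), of 11 NF-kB genes 0 (0 and 1) and of 18 interferon-stimulated genes 0 (0 and 1).

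Markers of the line were compared next. All 15 HEK293 lineage markers, renal and neuronal, were in the table, 13 were tested, and PAX8, a renal factor, stayed under 1 RPKM. Of the 13, 0 were called between repleted and full medium. At an unadjusted limma p under 0.05, 0 were higher and 3 (23.1%) lower, beside 3.48% and 4.28% of all genes tested. The 3 were the keratins KRT8 and KRT18 and the neuronal filament gene INA. KRT8 had 135, 132 and 138 RPKM in full and 124, 119 and 129 in repleted medium, KRT18 had 76.5, 79.1 and 76.6 and 70.1, 69.4 and 71.1, and INA had 12.4, 12.8 and 13.2 and 11.6, 11.2 and 12.0. The log2 differences were -0.12, -0.14 and -0.13. The 3 were named for their unadjusted p, so their lack of overlap between these media is only a description. VIM, vimentin, differed by 0.02 between repleted and full medium, and NEFL, a neurofilament, by 0.004 against -2.12 between depleted and full. The summed level of the 15 was 1330 to 1342 RPKM in full and 1288 to 1327 in repleted libraries. Its largest parts were VIM (573 to 584 RPKM in full medium) and STMN1 (439 to 464). The neuronal genes SYN1 and NEFH reached at most 0.62 and 0.29 RPKM in the full and repleted libraries.

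Most markers of other lineages were low. In the table stood 20 of them, of which 12 never reached 1 RPKM, and INS, HBB and SFTPC were listed at 0 in all 9 libraries. Of 6 tested, 0 were called, and 2 were lower at an unadjusted limma p under 0.05: LUM, a matrix proteoglycan, and EPCAM, an epithelial adhesion protein. LUM had 9.72, 9.42 and 7.73 RPKM in full and 7.19, 5.69 and 6.26 in repleted medium (log2 -0.43), and EPCAM had 8.25, 7.33 and 8.08 and 4.53, 5.39 and 6.53 (log2 -0.46). In these media both stood above the renal factors of the line. PAX2, LHX1, WT1 and SIX2 reached at most 3.61, 3.29, 3.1 and 3.95 RPKM in any library. The summed level of the 20 was 21.3 to 23.9 RPKM in full, 16.1 to 17.4 in repleted and 15.4 to 17.2 in depleted libraries. Its part in the results was not tested. LUM is also one of 25 tested extracellular matrix genes, of which 0 were called between repleted and full medium, with 0 higher and 3 lower at an unadjusted limma p under 0.05. In depleted medium 20 of those 25 (80%) stood lower than in full medium and 3 (12%) higher, beside 31.2% and 29.8% of all genes tested.

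**Figure D5:**
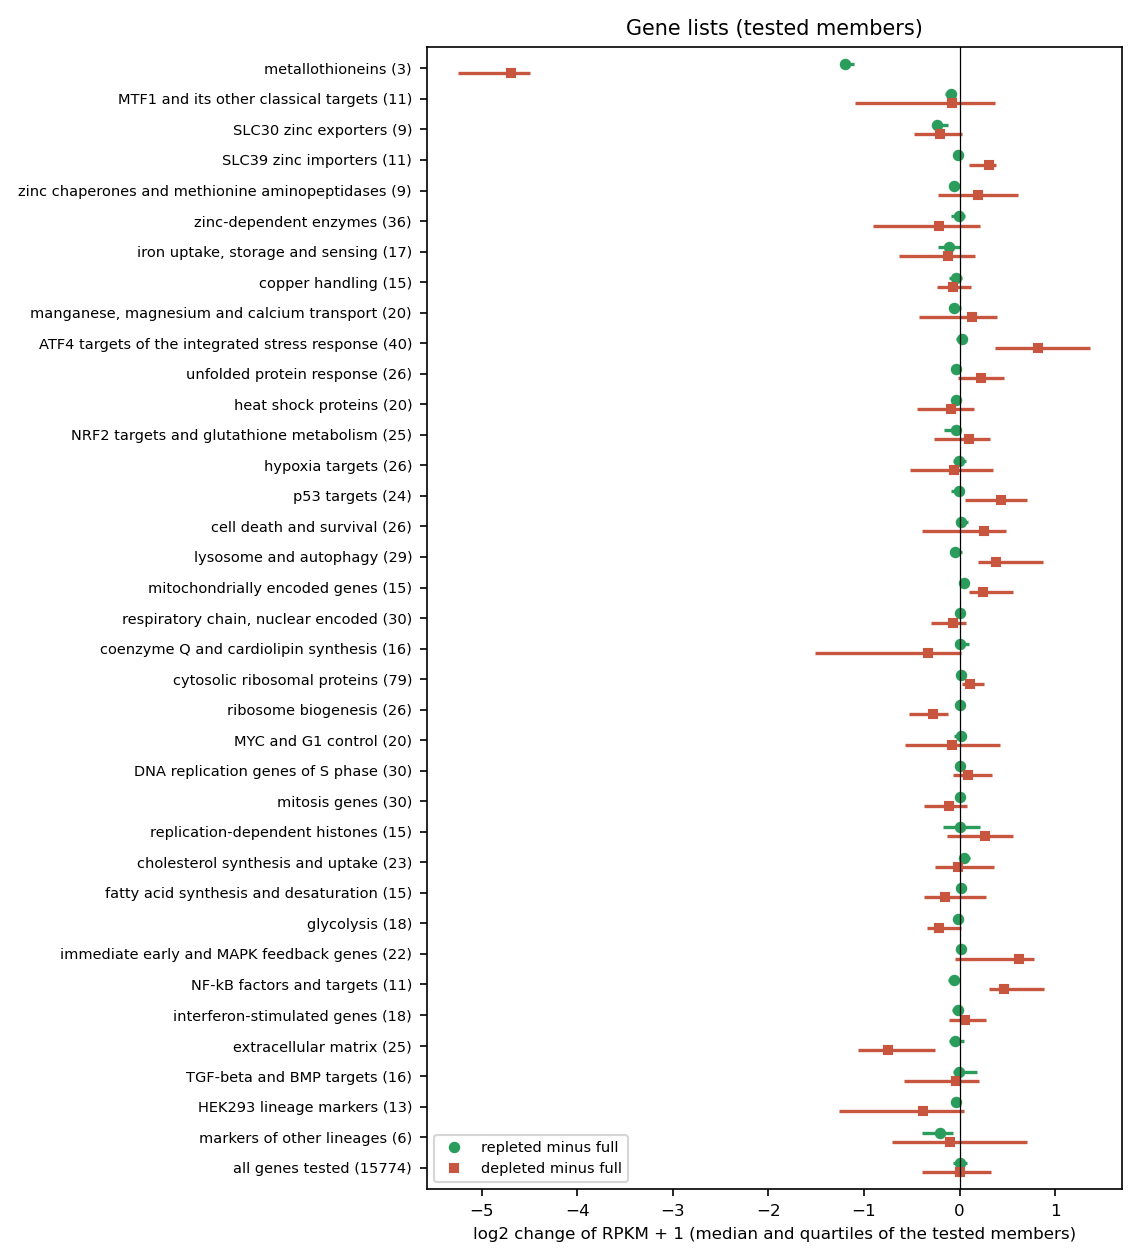
Median log2 difference (point) and quartiles (line) of the tested members of 36 gene lists and of all genes tested, for repleted minus full (green) and depleted minus full (red), with the number tested in brackets. Apart from the metallothioneins (-1.20 repleted and -4.69 depleted), the repleted medians lie between -0.24 and 0.05, and the depleted medians between -0.75 and 0.82.

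The fifth called gene, RP3-365I19.2 (ENSG00000271644), is a pseudogene of 62 nucleotides effective length. Its full libraries had 1.46, 2.40 and 2.27 RPKM, and each of the 3 repleted ones listed it at 0. Depleted libraries had 0.14, 0 and 0. No fold is given, since one group is at 0 and the table holds no counts. Its limma adjusted p was 0.0282. It was not called without full replicate 2 (adjusted p = 0.209), full replicate 3 (0.212), depleted replicate 2 (0.0517) or depleted replicate 3 (0.0659). The same held without repleted replicate 1 (0.0942), 2 (0.0925) or 3 (0.109). It was also not called with the full and repleted libraries alone or with the replicate number as a block. A pseudocount of 0.1 (0.276) and the stricter threshold gave no call either.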

How the data were processed

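TruSeq libraries of polyadenylated RNA were read single-end on a HiSeq, per the labels. The authors deposited each gene as log2 of RPKM plus 1. The submitters' processing notes list RSEM 1.2.6, Bowtie 1.0.1, BWA 0.7.12-r1039, bedtools 2.25.0.3, hg19 and GRCh37, with no role or order. Scaling between libraries is not given in the sources used here. The 20320 blank rows were left out. Groups follow the labels' culture medium.

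Since the table holds no counts, limma 3.58.1 (R 4.3.3) was used on the deposited values with a mean-variance trend, 1 mean per group over all 9 libraries, Benjamini-Hochberg adjustment over 15774 genes (at least 1 RPKM, 3 or more libraries), and a threshold of 0.05. Confidence intervals are at 95% from the same model. The p-values set the difference between group means against the spread between libraries, pooled over all 9 and moderated across genes. Log2 differences use a pseudocount of 1 and understate changes of low genes. The share of all genes tested whose libraries did not overlap is not given. A lack of overlap is therefore a description and not a sign of a difference. Depth was estimated from the steps of low values, with 59% to 66.1% of them whole reads within 0.1 read, so no counting interval was computed. Duplicated symbols were taken at the entry with the higher mean.

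The comparison, its genes and the 36 gene lists were chosen with earlier results of these data known. Genes were named by rule: the 12 largest called rises and falls without overlap and with a mean of at least 1 RPKM, every tested metallothionein, MTF1, SLC30 and SLC39 gene, up to 4 called members of each list or else the most abundant one, and 11 genes with large changes in depleted medium. Other genes, NQO1, MGST1, FTH1, TFRC, BACH1, ID3, EGR1 and CCND1 among them, were named after their values were seen. Alternatives were a pseudocount of 0.1, no filter, a mean of at least 1 RPKM, only the 6 libraries compared, the replicate number as a block, median centring, quantile normalization, a threshold of 0.01 and each of 9 libraries left out. Protein-coding genes alone and effective length of at least 200 nucleotides were added after seeing the data. The model was tested on simulated data. Promoters came from RefSeq (GRCh38.p14), where 4 of 6 genes looked for were matched. They are not coordinates of the deposited values, which follow hg19. Plots used Python 3.11.15 and matplotlib 3.10.9.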

Additional observations from a re-analysis of the deposited data

How the results depend on the processing

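The count of 5 genes lower in repleted than in full medium became 3 with a pseudocount of 0.1, 2 with no filter, 2 with only the 6 libraries compared, 2 with the replicate number as a block and 1 at a threshold of 0.01. Leaving out 1 library gave 1 to 6 lower and 0 to 3 higher. It gave 1 lower without repleted replicate 3, full replicate 2 or full replicate 3, 2 without depleted replicate 2, and 3 without depleted replicate 3, repleted replicate 1 or repleted replicate 2, while 3 genes were higher without full replicate 1 and 1 without full replicate 2 or depleted replicate 1. The cause was not tested. Median centring gave 7 lower, quantile normalization 6, a mean of at least 1 RPKM 4, and, added after seeing the data, protein-coding genes alone 7 and an effective length of at least 200 nucleotides 6. Over protein-coding genes alone the 7 were MT2A, MT1F, MT1X, HMOX1, FTL, NQO1 and SLC30A1 (limma adjusted p = 0.0489), the last called in no other setting. MT2A was called in all 19 alternatives. With only the 6 libraries compared, MT2A (limma adjusted p = 0.000788) and MT1X (0.0278) passed, and HMOX1, FTL and MT1F did not. With the replicate number as a block MT2A and MT1X alone passed, both at an adjusted p of 0.0174. Residuals of full and repleted libraries with the same number correlated between -0.00494 and 0.0123, those with other numbers between -0.0266 and 0.0305. Of 3 full libraries, 0 correlated best with the repleted library of the same number. With depleted libraries included, same-number pairs lay between -0.0144 and 0.0726 and other pairs between -0.0609 and 0.0416. The labels do not say what the numbers mark, and values this near 0 cannot decide whether libraries were paired. Counts for both depleted comparisons stayed within 1.5 times in all 19 alternatives. Of the values of single named genes, 1997 kept their side of the threshold, 14 gained a call and 45 lost one, and 0 called values changed sign. The RPKM table gives no read counts, so levels near 1 RPKM and short transcripts have no counting error attached, and a missing call does not show equality.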

Other observations

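RN7SL1, RN7SL2 and RN7SK, noncoding transcripts of RNA polymerase III chosen after their values were seen, varied between libraries of the same medium. RN7SL2, an RNA of the signal recognition particle, had 16.6, 17.4 and 15.7 RPKM in full medium, 30.6, 30.1 and 58.9 in repleted medium, and 169.7, 106 and 23.2 in depleted medium. RN7SL1 had 9.95, 13.4 and 11.2 in full, 15.4, 11.5 and 31.9 in repleted and 71.7, 31.7 and 16.9 in depleted medium. RN7SK, which restrains the elongation factor P-TEFb, had 8.94, 6.19 and 7.41 in full, 10.2, 10.4 and 20.1 in repleted and 76.2, 11.7 and 10.7 in depleted medium. Repleted replicate 3 was the highest of its group for all 3, and depleted replicate 1 the highest of the 9 libraries. None of the 3 passed the limma test of repleted against full medium (adjusted p = 0.806, 0.693 and 0.823 for RN7SL1, RN7SL2 and RN7SK). These RNAs are not polyadenylated as a rule. POLR3G, a subunit of that polymerase, had 18.5, 18.6 and 18.8 RPKM in full medium, 14.6, 12.9 and 15.0 in repleted medium and 3.81, 3.20 and 3.87 in depleted medium (repleted minus full log2 -0.38, limma adjusted p = 0.333).

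A few transcripts, chosen after their values were seen, lay outside the range of both other media in repleted medium. EEF1A2, a translation elongation factor, had 75.4, 73.0 and 74.2 RPKM in repleted medium, against 85.6, 87.0 and 91.4 in full and 85.3, 88.1 and 91.2 in depleted medium (repleted minus full log2 -0.24, limma adjusted p = 0.152). LGALS3BP, a secreted glycoprotein, had 93.6, 91.7 and 94.8 RPKM in repleted, 106, 109 and 113 in full and 144, 141 and 150.5 in depleted medium (log2 -0.23, limma adjusted p = 0.152). The small nucleolar RNA SNORD45A was listed at 0 in all 3 full libraries and had 1.33, 2.54 and 2.97 RPKM in repleted medium. The noncoding RP11-3P17.5 differed in another way, with 0, 22.2 and 0 RPKM in full medium and overlapping values in repleted (89.5, 93.6 and 55.7) and depleted medium (48.2, 79.9 and 66.7). Its limma adjusted p for repleted against full medium was 0.333 with all libraries and 5.7e-05 without full replicate 2.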
